A study of Mus musculus with 80 samples.

Results

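The p53 target genes described here are 34 genes that p53 (gene Trp53) activates, or that control p53 itself, chosen by their symbols and summed over all entries of a symbol in each of 12 expression tables from mouse embryonic stem (ES) cells. They are 34 of 37890 symbols listed in at least 1 table, and 11475 symbols are listed in all 12. By role they comprise 5 regulators, 7 genes of arrest and proliferation, 13 of apoptosis, 4 of repair and 5 of stress and metabolism. The study concerns SALL4 and SALL1, zinc finger proteins of ES cells, and its 80 samples include 68 of chromatin or DNA that were not analysed here.

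RNA was measured in 9 groups, of which 3 have 2 libraries and 6 have 1. The groups are Sall4 KO cells (Sall4 delta/-) carrying a transfected mutant SALL4A (2 libraries; the label of the second names a Flag-SALL4A-MUT transgene), the same KO cells carrying transfected WT SALL4A (1 library), Sall4 KO cells (2 libraries) and Sall4 het cells (Sall4flox/-, 2 libraries). Both Sall4 KO and Sall4 het cells thus carry 1 constitutive null allele, and the het is no wild type. The others, with 1 library each, are Sall1-/-/Sall4-/- cells (DKO), WT cells given as their control, Sall1 KO cells (Sall1 delta/-), Sall1 het cells (Sall1flox/-), and wild-type TT2 ES cells. The labels give the strain as C57BL/6J for replicate 1 and all single libraries except TT2, which is (C57BL/6NCrlj x CBA/JNCrlj)F1, and as 129P2/OlaHsd with the line E14.1 for replicate 2. The sources used here do not say whether the KO, DKO and transfected lines are single clones or pools. The labels also tie both libraries of a group to 1 biological sample record, which conflicts with the different strain and line they give for each, and this cannot be settled here. Nothing in them says that the libraries came from separate cultures, so the p-values below reflect no more than how far these libraries differ, and that spread may be technical.

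p53 is a transcription factor that damage and other stress stabilise, and its targets stop the cell cycle, start apoptosis, repair DNA or, like Mdm2, return p53 to a low level. It binds DNA as a tetramer, at a site made of a pair of half-sites in tandem, each 3 purines, C, A or T at 2 positions, G and 3 pyrimidines. ES cells express p53 highly, and it is largely cytoplasmic in undifferentiated cells. Cdkn1a, its best known target in somatic cells, is only weakly induced in ES cells.

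The promoter windows in the RefSeq table of build GRCm38.p6 run from 250 bases before to 50 bases after a gene's start. They cover 26 of the 34 genes, and there is no entry for Zmat3, Pmaip1, Tnfrsf10b, Perp, Trp53inp1, Rrm2b, Ddb2 or Xpc. An exact half-site, whose pattern is its own reverse complement so that 1 search covers both strands, lies in a window of 12 of the 26 genes (46.2%), against 2582 of 27025 genes with an entry (9.55%). By window the counts are 13 of 35 (37.1%) and 2745 of 32851 (8.36%). The members were chosen as p53 targets or regulators, so a higher share in them is no result of these data. The stretches below show it in 8 genes: in the first 5 the RNA was higher in the labelled KO than in the het library of both replicates, and in the last 3 it was not. The other 4 genes with a half-site are Bax, Aen, Gtse1 and Sesn1. After scaling, each of these was higher in KO in 1 replicate and lower in the other, so none was higher in both. Each stretch is read 5′ to 3′ on the gene's strand, with the half-site in capitals and up to 25 bases on either side.
Mdm2: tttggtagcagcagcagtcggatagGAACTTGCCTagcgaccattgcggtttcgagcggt
Cdkn1a: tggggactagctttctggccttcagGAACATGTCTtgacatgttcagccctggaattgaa
Ckap2: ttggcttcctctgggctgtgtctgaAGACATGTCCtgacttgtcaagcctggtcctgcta
Ei24: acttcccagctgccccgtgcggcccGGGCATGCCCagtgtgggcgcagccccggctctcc
Polk: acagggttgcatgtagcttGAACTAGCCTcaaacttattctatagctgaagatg
Ccng1: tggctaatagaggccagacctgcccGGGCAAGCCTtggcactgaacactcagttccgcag
Trp53: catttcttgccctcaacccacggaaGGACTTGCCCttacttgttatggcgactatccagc
Ppm1d: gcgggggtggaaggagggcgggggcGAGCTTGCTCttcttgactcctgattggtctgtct
The half-site begins 186 bases before the start in Mdm2 (the stretch is chr10:117710910-117710969, minus strand) and 51 bases before it in Cdkn1a (chr17:29090903-29090962, plus strand). It begins 203 bases before it in Ckap2 (chr8:22185988-22186047, minus), 10 in Ei24 (chr9:36797310-36797369, minus) and 231 in Polk (chr13:96519384-96519437, minus). In Ccng1 it begins 185 bases before the start (chr11:40755437-40755496, minus), in Trp53 75 (chr11:69580259-69580318, plus) and in Ppm1d 132 (chr11:85311097-85311156, plus). The Cdkn1a window, which belongs to 1 of its entries, holds a second half-site 73 bases before the start. A match is no binding site by itself. Of the 12 genes with a half-site, 8 were higher and 4 lower in KO than in het, with a median log2 change of 0.05. Of the 13 tested genes whose windows hold none, 9 were higher and 4 lower, with a median of 0.30.

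Before the members, the deleted genes were read in every library. Sall4 was listed at 358 FPKM and 218 RPKM in the libraries labelled KO, against 196 FPKM and 64.2 RPKM in those labelled het, and at 109 FPKM in the library labelled DKO, against 17.6 FPKM in its WT. It stood at 77.4 FPKM and 161 RPKM with mutant SALL4A and at 97.4 FPKM with WT SALL4A. These values for Sall4 RNA go against the KO and DKO labels; they are values of the whole gene, so they do not show whether the deleted part is absent. Sall1 was lower in the library labelled DKO, at 2.27 FPKM against 13.9 FPKM in its WT, and in that labelled Sall1 KO, at 13.3 FPKM against 21.8 FPKM in Sall1 het. KO and DKO below mean the libraries so labelled. All 10 ES cell markers examined (8 or 9 of them in the replicate 2 tables) were listed at 1 or more wherever they were listed. Depth is unknown, because FPKM and RPKM keep no read totals.

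In Sall4 KO against Sall4 het, 23 of the 33 members tested were higher and 10 lower, and none passed the test. Perp, a membrane protein of apoptosis and cell adhesion, had a log2 change of 1.43 ± 0.24 (SE), and Ephx1, a detoxifying epoxide hydrolase, one of -0.93 ± 0.24. Rrm2b, a ribonucleotide reductase subunit, had the estimate farthest from 0, at -1.55, but with an SE of 1.65. That SE is pooled over all 6 fitted libraries, and the mutant ones held Rrm2b at 1.64 FPKM and 108 RPKM. Within the KO over het pairs it was lower in both replicates, at log2 ratios of -0.94 and -2.13. Fas, the death receptor, was under the filter on low values and was not tested. The median log2 change was 0.18 over the members and -0.02 over the 15094 genes tested. With limma and Benjamini-Hochberg adjustment over all genes, 0 members and 0 of 15094 genes (0%) reached an adjusted p of 0.05. The lowest adjusted p among members was 0.362, for Perp, and among all genes it was 0.237. At an unadjusted p under 0.05 there were 2 members higher, Perp and Polk, where 3.85% of all genes were, and 1 lower, Ephx1, where 4.72% were.

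Of the 33 tested members, 16 were higher in KO in both replicates, where 28.6% of all genes were, and 4 were lower in both, where 30% of all genes were. The KO values lay above both het values in 13 members, against 16.5% of all genes, and below them in 4, against 16.2%. By role, the median log2 change was 0.45 in the 7 arrest genes, all of which were higher, and 0.35 in the 12 apoptosis genes tested, of which 11 were higher. It was 0.04 in the 4 repair genes, 2 higher and 2 lower. The median was -0.01 in the 5 regulators, 2 higher and 3 lower, and -0.04 in the 5 stress genes, 1 higher and 4 lower. No test sets these roles against each other. Markers of another cell type moved as well: the summed level of the primitive endoderm markers was 68.4 FPKM and 42.6 RPKM in KO, against 34.7 FPKM and 20.8 RPKM in het, with 10 markers listed in replicate 1 and 8 in replicate 2. None of the listed ones was at 0, and all 5 that entered the fit were higher in KO. Most of each sum came from Lamb1, Col4a1 and Col4a2. Gata6, Sox17, Sox7, Foxa2 and Pdgfra stood at only 0.225 to 1.28 FPKM in KO replicate 1 and did not enter the fit. The fibroblast sum was 113 FPKM and 36.8 RPKM in KO, against 54.1 FPKM and 47.6 RPKM in het, with Postn at 0 in KO replicate 1, Dcn at 0 in het replicate 1 and Lum at 0 in het replicate 2. Of the 7 fibroblast markers in the fit, 5 were higher in KO and 2 lower. The part of either marker list in the members' values was not tested. In bulk RNA, a change in the number of cells of a type and a change in RNA per cell cannot be told apart.

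**Figure D1:**
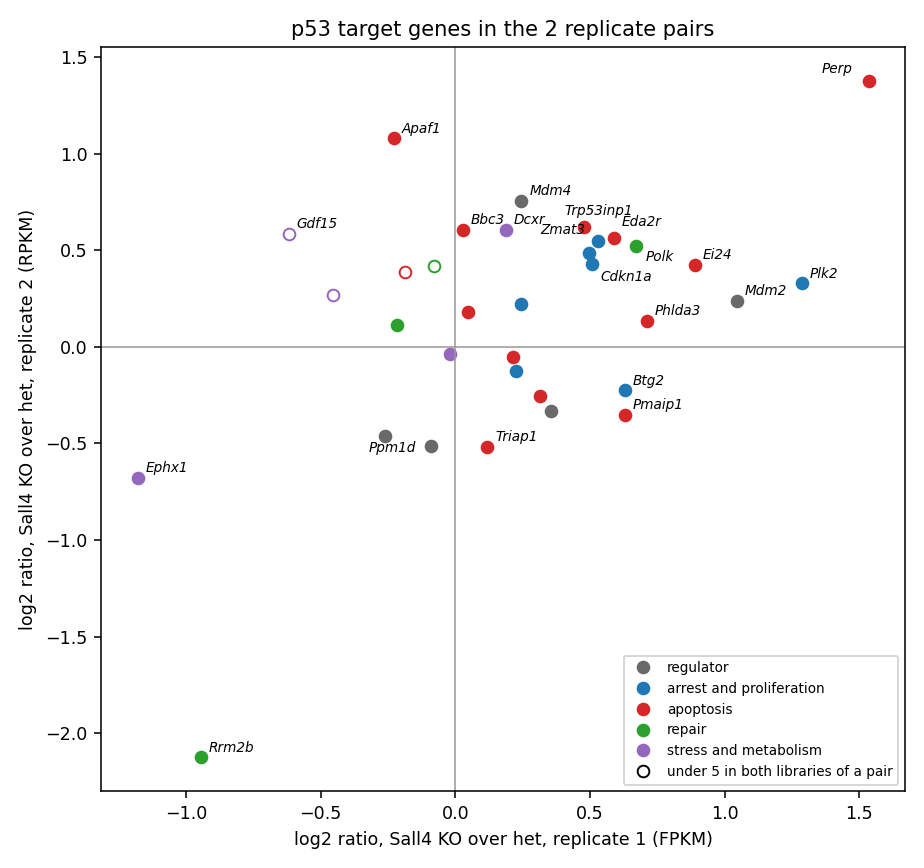
Each point is 1 of the 34 p53 target genes, placed by its log2 ratio of scaled values plus 1 for labelled Sall4 KO over het, in replicate 1 (FPKM, x axis) and replicate 2 (RPKM, y axis), coloured by role, open where both libraries of a pair were under 5. Perp lies at the upper right, at 1.53 and 1.38, Ephx1 at the lower left, at -1.18 and -0.68, and Rrm2b at -0.94 and -2.13.

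Among the regulators, Trp53 itself did not follow its targets. It was listed at 201 FPKM and 236 RPKM in KO and at 244 FPKM and 313 RPKM in het (log2 change -0.38 ± 0.30 SE, adjusted p = 0.809 in limma). Both KO values were below both het values after scaling; reads from its processed pseudogene cannot be told apart in these tables. The mRNA level says nothing of p53 protein, which was not measured in these tables.

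Mdm2, the ubiquitin ligase that p53 induces and that degrades it, had 75.1 FPKM and 57.5 RPKM in KO, against 36.2 FPKM and 46.7 RPKM in het. Both KO libraries were above both het libraries, by 1.05 on the log2 scale within replicate 1 but by 0.24 within replicate 2. The fitted change was 0.63 ± 0.31 (SE; adjusted p = 0.672 in limma). Mdm4, the related inhibitor of p53, had 42.6 FPKM and 38.2 RPKM in KO and 36.1 FPKM and 21.3 RPKM in het, a change of 0.48 ± 0.26 (SE; adjusted p = 0.691 in limma). Here the larger difference was in replicate 2. Ppm1d, the phosphatase WIP1 that switches off p53 signalling, was lower, with 7.67 FPKM and 7.93 RPKM in KO and 8.31 FPKM and 11.3 RPKM in het. Its change was -0.31 ± 0.26 (SE; adjusted p = 0.805 in limma). Ccng1, cyclin G1, was higher in replicate 1 and lower in replicate 2.

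Among the arrest genes, Cdkn1a, the CDK inhibitor p21, had 33.8 FPKM and 36.2 RPKM in KO, against 23.7 FPKM and 25.5 RPKM in het. The groups do not overlap, and the fitted change was 0.45 ± 0.23 (SE; adjusted p = 0.672 in limma). Plk2, a kinase of the stress checkpoint, had 19.1 FPKM and 13.3 RPKM in KO and 7.29 FPKM and 9.98 RPKM in het. Its ratio was 1.29 on the log2 scale in replicate 1 and 0.33 in replicate 2, so most of its fitted change of 0.79 ± 0.36 (SE; adjusted p = 0.647 in limma) lay in 1 pair. Zmat3, an RNA-binding zinc finger protein, had 14.1 FPKM and 14.1 RPKM in KO and 9.53 FPKM and 8.95 RPKM in het. Its change was 0.52 ± 0.22 (SE; adjusted p = 0.611 in limma), nearly the same in each pair, at 0.53 and 0.55. Ckap2, a spindle protein, was alike: 59.1 FPKM and 60.0 RPKM in KO against 42.0 FPKM and 40.8 RPKM in het (0.47 ± 0.22 SE, adjusted p = 0.662 in limma). Plk3, a kinase related to Plk2, was little different, with 11.4 FPKM and 9.84 RPKM in KO and 9.56 FPKM and 7.96 RPKM in het. Btg2, an antiproliferative regulator of mRNA decay, and Gtse1, a G2 phase protein that restrains p53, were higher in replicate 1 and lower in replicate 2.

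The apoptosis gene that stood out was Perp (chr10:18564876-18576879 in mm9, as the tables give it). It had 33.7 FPKM and 35.1 RPKM in KO, against 11.1 FPKM and 12.4 RPKM in het. Both KO libraries were more than 2-fold above their het, and the fitted log2 change was 1.43 ± 0.24 (SE; unadjusted p = 0.00234, adjusted p = 0.362 in limma). Ei24, a protein of the endoplasmic reticulum linked to autophagy, had 88.5 FPKM and 118 RPKM in KO, against 47.7 FPKM and 84.3 RPKM in het. Both KO values lay above both het values, in replicate 1 by more, and the change was 0.64 ± 0.32 (SE; adjusted p = 0.671 in limma). Eda2r, a receptor of the TNF receptor family, had 11.7 FPKM and 17.4 RPKM in KO and 7.48 FPKM and 11.0 RPKM in het (0.56 ± 0.25 SE, adjusted p = 0.638 in limma).

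Trp53inp1, a stress protein that promotes p53-dependent death, had 35.2 FPKM and 36.8 RPKM in KO and 25.2 FPKM and 22.7 RPKM in het. The groups do not overlap and the change was 0.53 ± 0.22 (SE; adjusted p = 0.608 in limma). Phlda3, an inhibitor of AKT signalling, had 60.9 FPKM and 39.5 RPKM in KO and 37.2 FPKM and 34.5 RPKM in het, with nearly all of the difference in replicate 1. Apaf1, the scaffold of the apoptosome, went opposite ways: 8.53 FPKM in KO against 10.3 FPKM in het in replicate 1, and 10.4 RPKM in KO against 4.22 RPKM in het in replicate 2. Of the classical effectors, Bax, which opens the mitochondrial outer membrane, had 278 FPKM and 238 RPKM in KO and 242 FPKM and 238 RPKM in het, close in both replicates. Bbc3 (PUMA), a BH3-only activator of it, had 24.1 FPKM and 24.7 RPKM in KO and 23.8 FPKM and 15.2 RPKM in het, so it was close in replicate 1 and higher in KO in replicate 2. Pmaip1 (NOXA), another BH3-only protein, had 7.76 FPKM and 5.02 RPKM in KO and 4.71 FPKM and 6.44 RPKM in het, so its replicates disagreed. The fitted changes of these 3 were 0.06, 0.30 and 0.12 on the log2 scale. Tnfrsf10b, a death receptor, Aen, a nuclease, and Triap1, an inhibitor of apoptosis, lay at 0.10, 0.01 and -0.21.

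**Figure D2:**
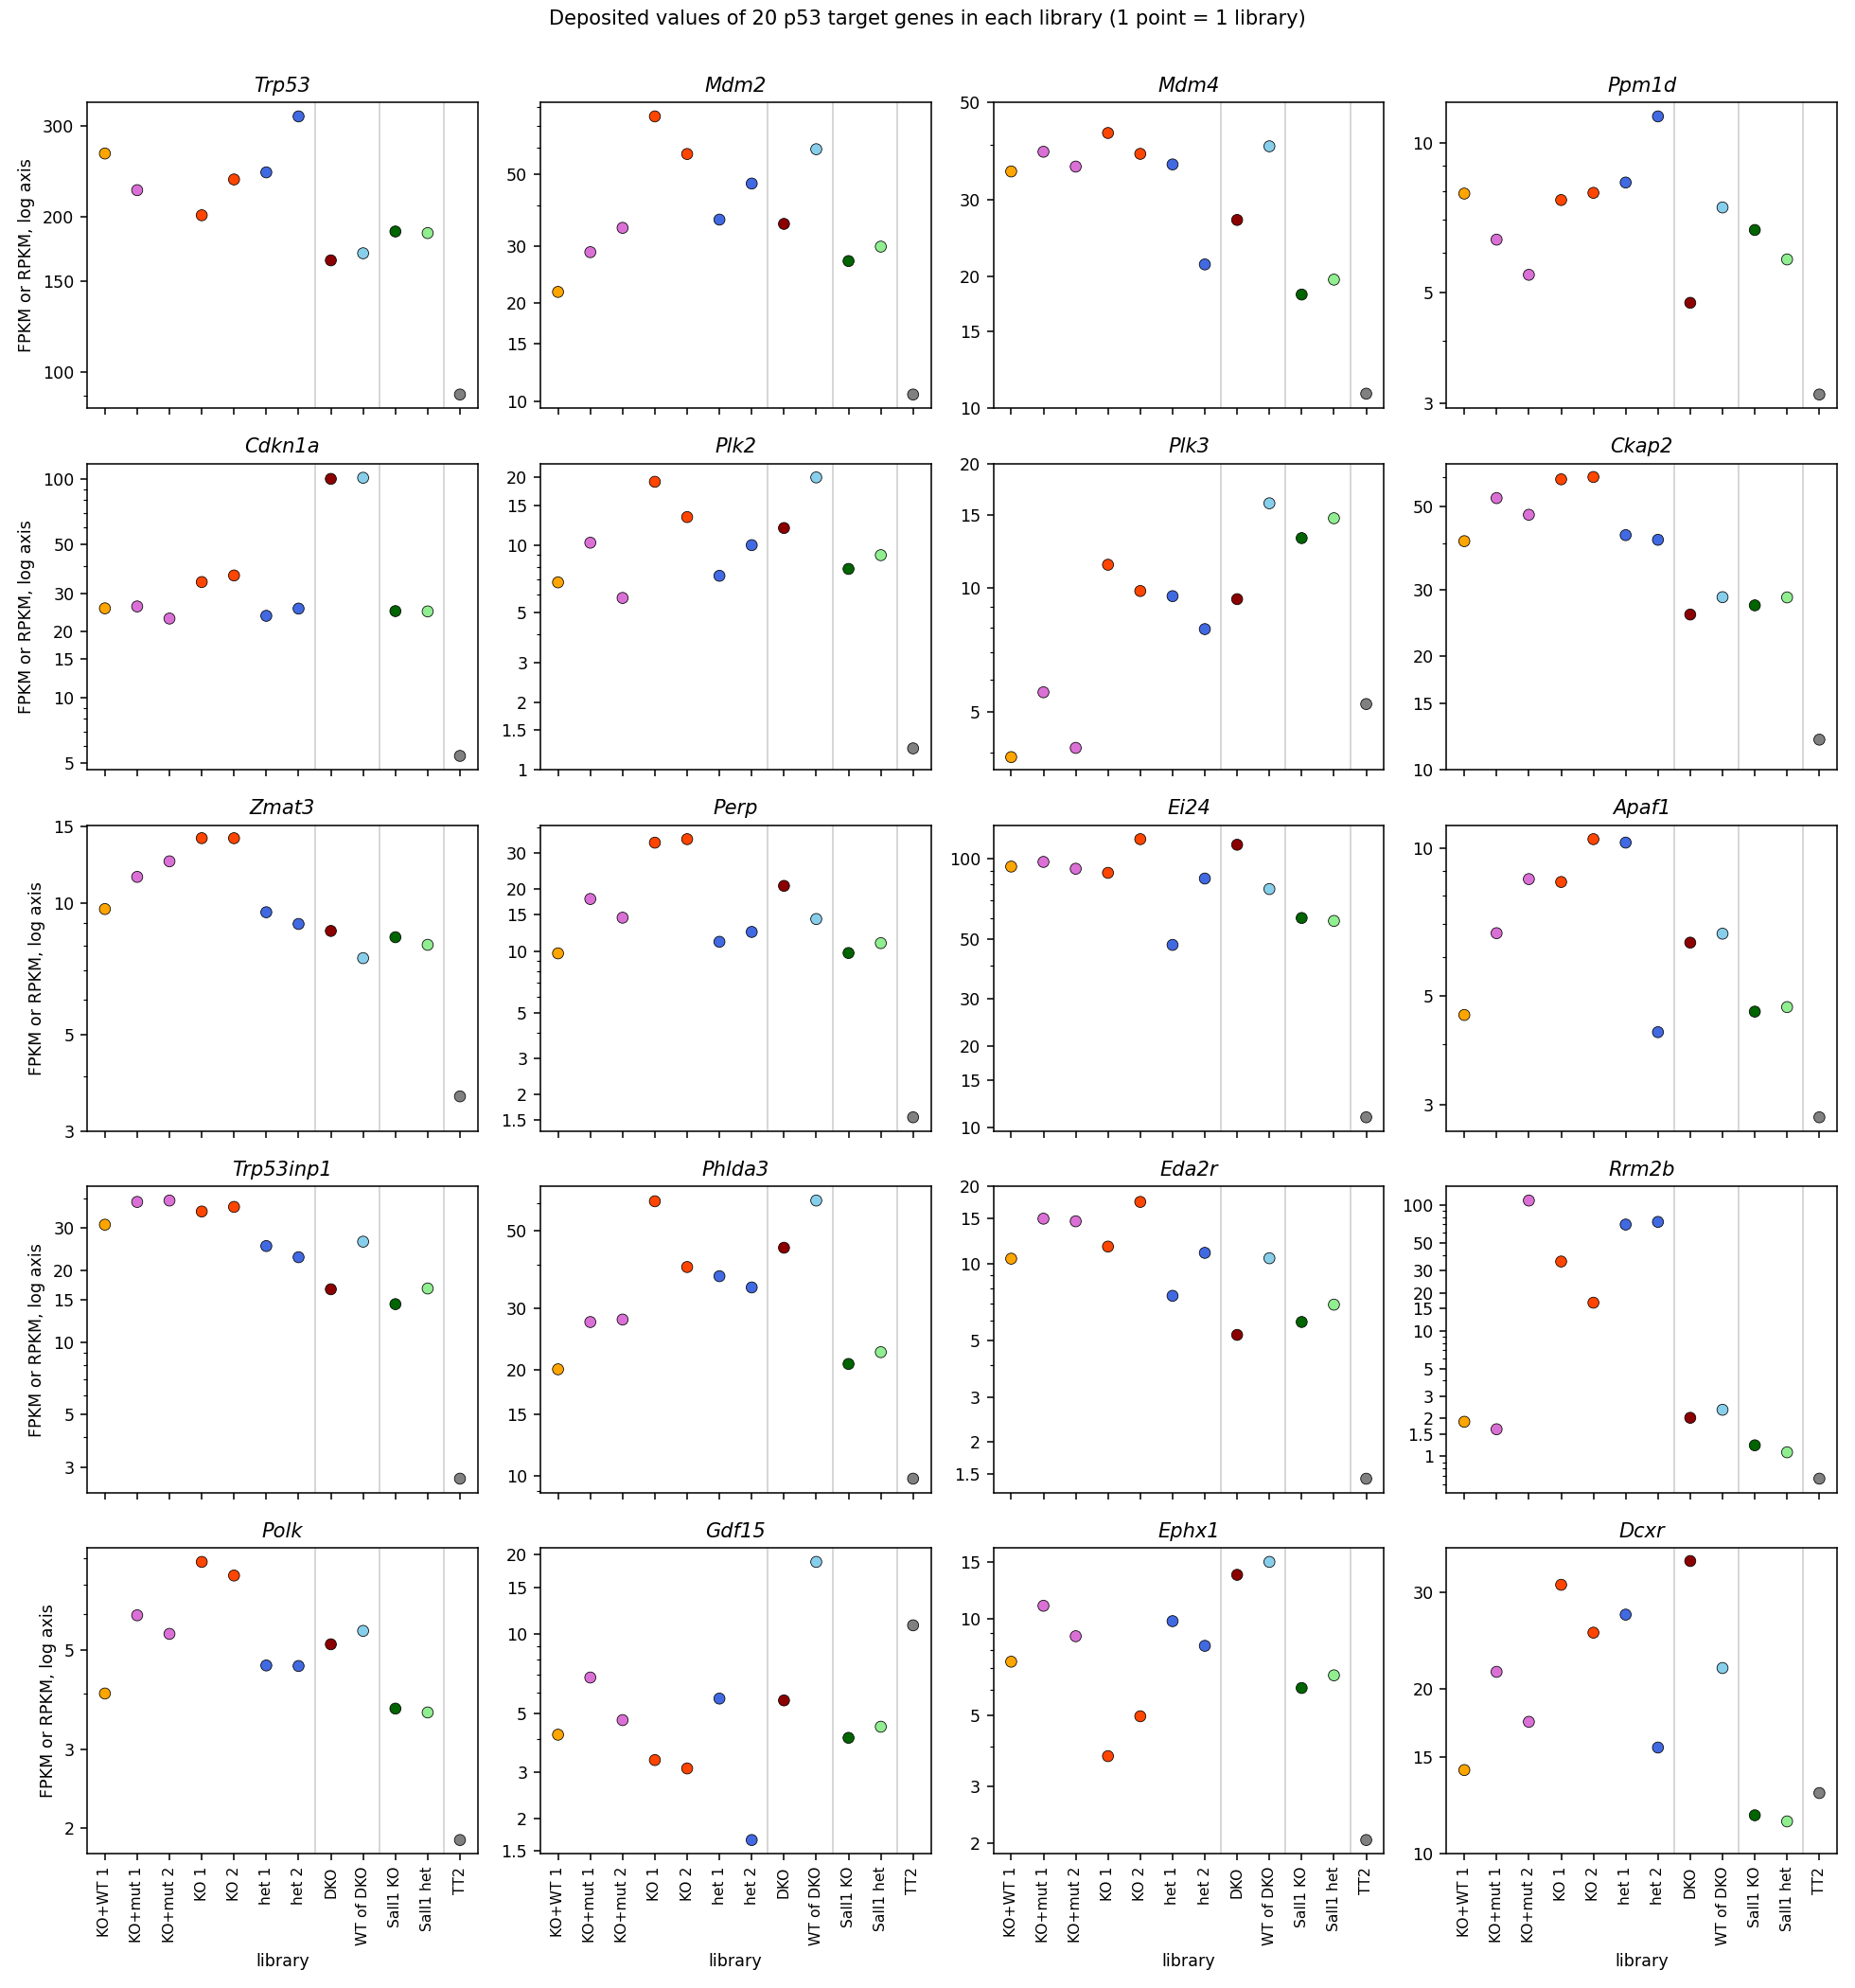
Deposited FPKM or RPKM values (log axis) of the 20 named p53 target genes in the 12 libraries, 1 point for each (Trp53 is not listed in mutant replicate 2); libraries are named by their labels, colours mark groups, and grey lines part the sets to be compared. Both KO points of Perp, at 33.7 and 35.1, stand above all other libraries, Cdkn1a stands at 100.1 in DKO and 101.3 in its WT, and Rrm2b at 16.7 or more in only 5 libraries.

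Among the repair genes, Polk, a DNA polymerase that copies past damaged bases, had 7.86 FPKM and 7.33 RPKM in KO, against 4.62 FPKM and 4.60 RPKM in het. The groups do not overlap, and the change was 0.58 ± 0.21 (SE; adjusted p = 0.572 in limma). Ddb2 and Xpc, the damage sensors of nucleotide excision repair, were low, at 3.64 to 6.73 in these 4 libraries, and had log2 changes of 0.15 and -0.07. Rrm2b, the p53-inducible subunit of ribonucleotide reductase, was listed at 35.5 FPKM and 16.7 RPKM in KO and at 69.8 FPKM and 73.3 RPKM in het, with a change of -1.55 ± 1.65 (SE; adjusted p = 0.864 in limma). That SE is pooled over all fitted libraries, so it also holds the spread between the mutant values. The Rrm2b values depend on the table. It was listed at 16.7 to 108 in the 5 tables that share an annotation type (Sall4 KO and het, both replicates, and mutant replicate 2) and at 0.665 to 2.35 in the other 7. It is the only member whose values part in this way. Where a 2-fold count or adjusted p call below crosses annotations and holds Rrm2b, it is named and nothing is read from it. The counts of higher and lower members and the medians that cross annotations hold it unnamed.

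Among the stress genes, Ephx1 (chr1:182906285-182951035 in mm9) had 3.74 FPKM and 4.97 RPKM in KO, against 9.81 FPKM and 8.22 RPKM in het. Both KO libraries were below both het libraries, and the change was -0.93 ± 0.24 (SE; unadjusted p = 0.014, adjusted p = 0.478 in limma). Dcxr, a carbonyl reductase, had 30.9 FPKM and 25.3 RPKM in KO and 27.3 FPKM and 15.6 RPKM in het (0.38 ± 0.24 SE, adjusted p = 0.729 in limma). Gdf15, a secreted stress hormone, had 3.32 FPKM and 3.09 RPKM in KO and 5.69 FPKM and 1.65 RPKM in het, so that its replicates went opposite ways. Sesn1 and Sesn2, which restrain mTORC1 signalling, had log2 changes of -0.10 and -0.04.

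Past 2-fold within a pair, replicate 1 had 4 of 32 members at 5 or more, where 8.58% of all genes passed: Mdm2, Plk2 and Perp higher and Ephx1 lower. In replicate 2 there were 3 of 31, where 13.5% of all genes passed: Perp and Apaf1 higher and Rrm2b lower. Only Perp passed in both. These shares are near those of all genes, above it in replicate 1 and below it in replicate 2.

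**Figure D3:**
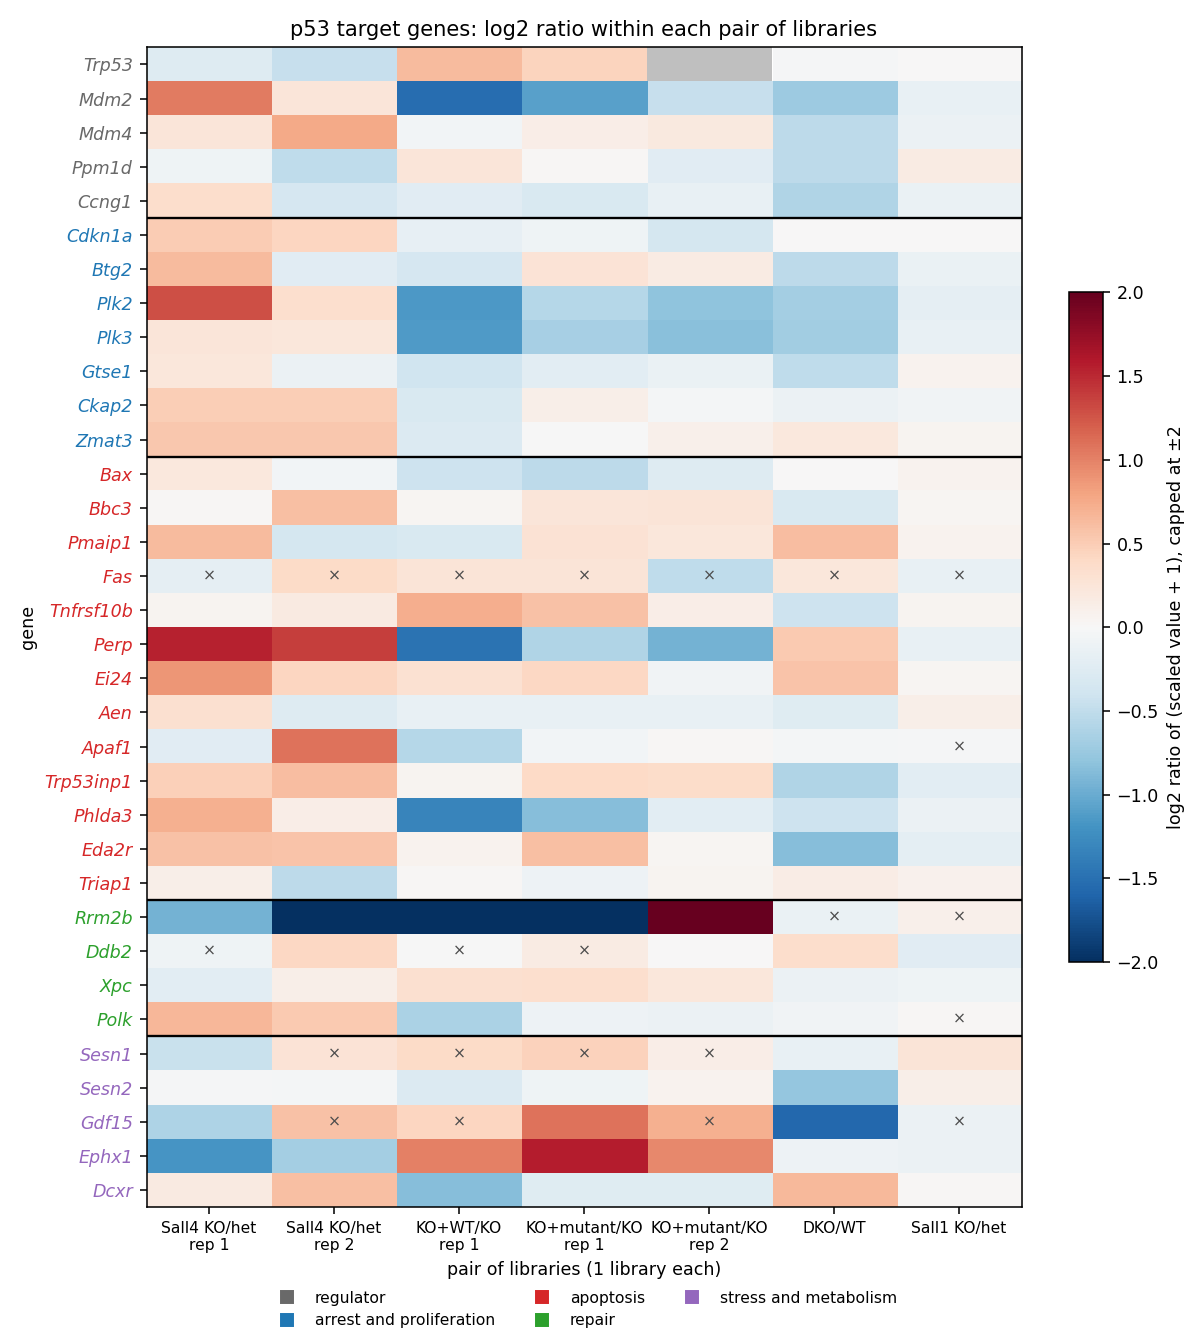
Log2 ratio of scaled value plus 1 for each of the 34 p53 target genes (rows, ordered and coloured by role) in 7 pairs of labelled libraries (columns), red where the first-named library is higher, blue where it is lower, capped at 2 in either direction; crosses mark genes under 5 in both libraries and grey a gene not listed. Perp is red in both Sall4 KO over het columns and blue in the 3 add-back columns, which use the same KO libraries. The Sall1 column is nearly white, between -0.22 and 0.26 for genes at 5 or more.

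The add-back libraries ask whether SALL4A put back into KO cells moves the members. With mutant SALL4A against KO, 18 of the 32 members tested were higher and 14 lower, with a median log2 change of 0.01, against -0.02 over the 11636 genes tested. With limma, 0 members and 0 of 11636 genes (0%) reached an adjusted p of 0.05. At an unadjusted p under 0.05 there were 2 members higher, Gdf15 and Ephx1, where 5.08% of all genes were, and 2 lower, Plk3 and Perp, where 4.69% were. The mutant values lay above both KO values in 10 tested members, where 22.8% of all genes did, and below them in 8, where 21.7% did. Trp53 is not listed in mutant replicate 2 and was not tested. Mutant replicate 1 comes from a table of another annotation than those of KO and het, so 1 of the 2 mutant libraries crosses annotations in both mutant comparisons. With values as deposited 8 of the 32 were higher. Genes were called when either mutant library was left out, but each such fit has 1 mutant library and no spread between mutant libraries. Without mutant replicate 2 all mutant values come from the other annotation, and Rrm2b was then the only member called. Nothing is read from these calls. Before scaling, all genes were shifted by -0.28 in replicate 1 and -0.29 in replicate 2 on the log2 scale, and the changes given here are relative to that shift.

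Marker sums differed between these libraries too. The primitive endoderm markers summed to 33.9 FPKM and 26.9 RPKM with the mutant, against 68.4 FPKM and 42.6 RPKM in KO, with 7 of 10 listed in mutant replicate 2 and none of the listed ones at 0. All 5 that entered the fit were lower with the mutant. The fibroblast markers summed to 16.0 FPKM and 9.09 RPKM with the mutant, against 113 FPKM and 36.8 RPKM in KO, with 6 listed in mutant replicate 2. Lum and Dcn were at 0 in mutant replicate 1 and Postn in KO replicate 1. Fbn1 and Tagln, at 44.6 and 53.8 FPKM, made up most of the fibroblast sum in KO replicate 1. Of the 6 fibroblast markers in the fit, 5 were lower with the mutant and 1, Thy1, was higher. The ES cell markers summed to 6965 FPKM and 5599 RPKM with the mutant, against 3537 FPKM and 5382 RPKM in KO. In replicate 2, 8 were listed with the mutant and 9 in KO. Dppa5a alone had 4337 FPKM and 3376 RPKM with the mutant, against 1442 FPKM and 2707 RPKM in KO. As deposited in replicate 2, Dppa5a, Nanog and Zfp42 were higher with the mutant, and Pou5f1, Sox2, Tdgf1, Lin28a and Utf1 were lower. Of the 8 in the fit, 7 were higher with the mutant and 1, Pou5f1, was lower. The part of these cell types in the members' values was not tested.

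Among members that were higher in KO than in het, Perp, Mdm2, Plk2 and Plk3 were lower with the mutant than in KO, while Trp53inp1 was higher still. Eda2r was higher with the mutant after scaling (0.34 ± 0.24 SE, adjusted p = 0.644 in limma). As deposited it had 15.0 FPKM with the mutant against 11.7 FPKM in KO, but 14.6 RPKM against 17.4 RPKM in KO. Perp had 17.9 FPKM and 14.5 RPKM with the mutant, against 33.7 FPKM and 35.1 RPKM in KO (-0.75 ± 0.23 SE, adjusted p = 0.470 in limma). Mdm2 had 28.7 FPKM and 34.1 RPKM with the mutant and 75.1 FPKM and 57.5 RPKM in KO (-0.74 ± 0.30 SE, adjusted p = 0.529 in limma). In both genes the groups do not overlap. Plk3 had 5.59 FPKM and 4.10 RPKM with the mutant, against 11.4 FPKM and 9.84 RPKM in KO, and its change was -0.73 ± 0.21 (SE; adjusted p = 0.456 in limma). Plk2 had 10.2 FPKM and 5.81 RPKM with the mutant, against 19.1 FPKM and 13.3 RPKM in KO. Ephx1 went the other way, with 11.0 FPKM and 8.81 RPKM with the mutant and 3.74 FPKM and 4.97 RPKM in KO (1.30 ± 0.24 SE, adjusted p = 0.359 in limma). Gdf15 had 6.84 FPKM and 4.71 RPKM with the mutant, against 3.32 FPKM and 3.09 RPKM in KO. Both comparisons use the same KO libraries, so opposite signs in them are no independent evidence.

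**Figure D4:**
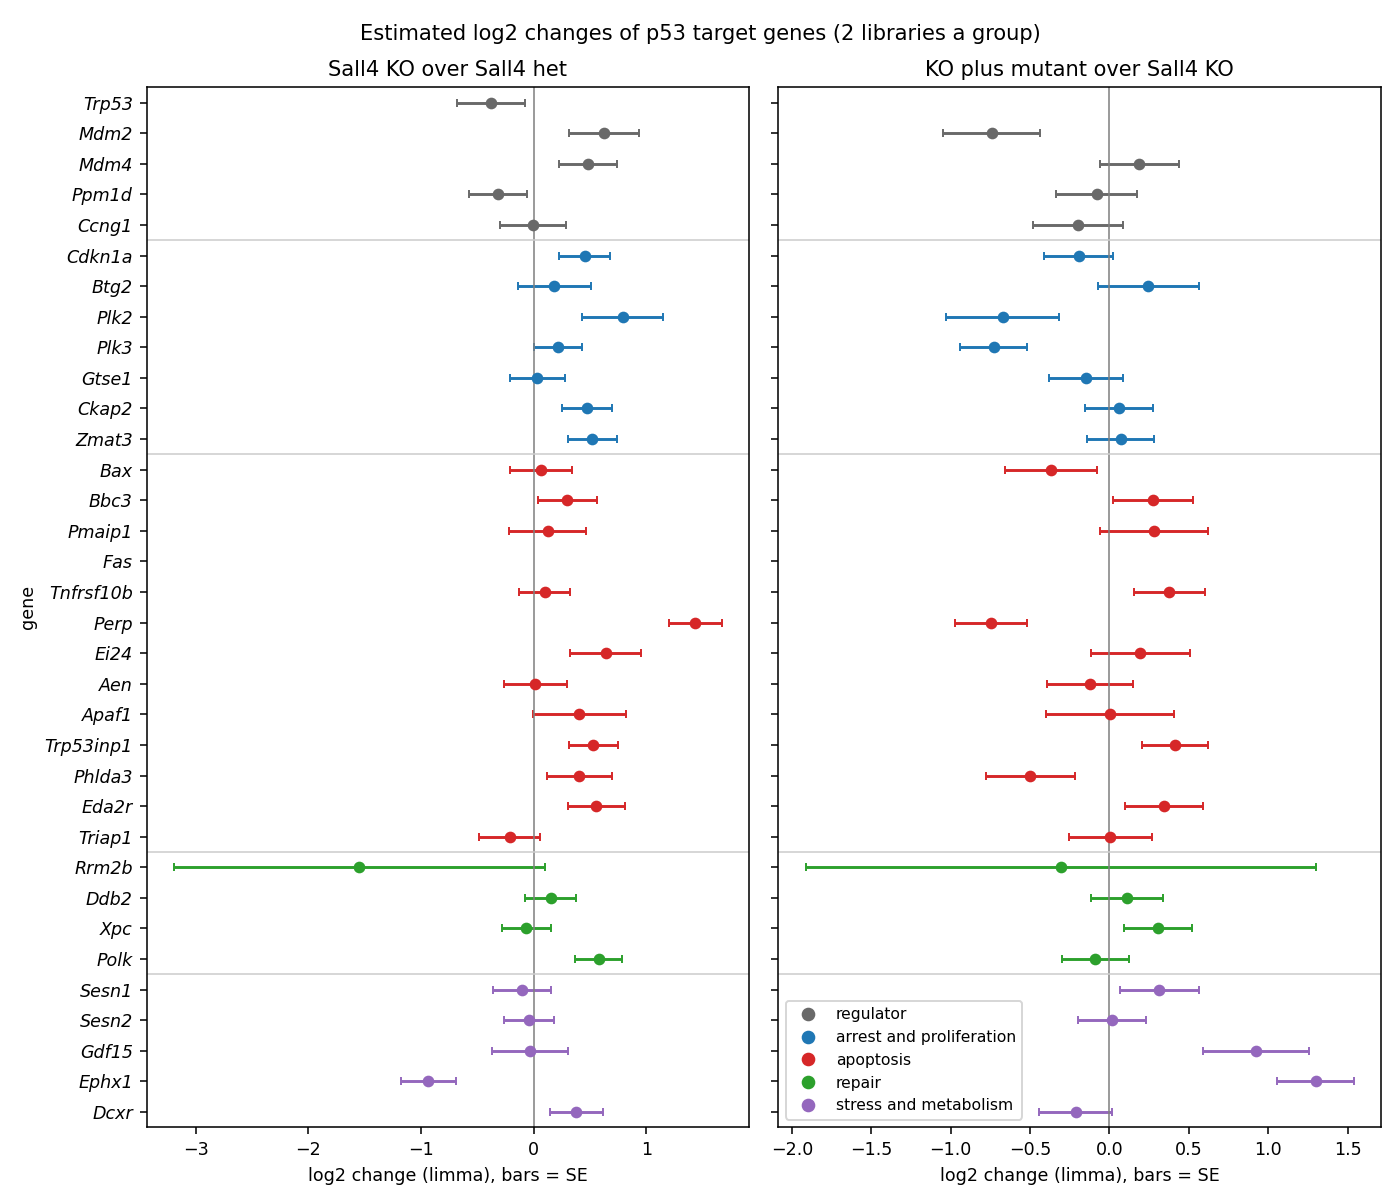
Fitted log2 changes (limma; bars are standard errors, 2 libraries a group) of the p53 target genes for labelled Sall4 KO over het (left) and KO plus mutant over KO (right), by role. Perp is at 1.43 on the left and -0.75 on the right, Ephx1 at -0.93 and 1.30, and Rrm2b has the widest bars, at 1.65 and 1.61; genes without a point were not tested.

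Mutant add-back against het sets no KO value against another, but the KO libraries still enter its scaling, SE and p-values. It also shares the het libraries with KO against het. There 21 of 32 members were higher and 11 lower, with a median of 0.26, against -0.01 over all genes tested. With limma, 0 members and 0 of 11636 genes (0%) reached an adjusted p of 0.05. At an unadjusted p under 0.05 there were 7 members higher, where 4.81% of all genes were, and 0 lower, where 5.72% were. The mutant values lay above both het values in 14 members, where 18.2% of all genes did, and below them in 4, where 18.1% did. With values as deposited 17 members were higher, the median was 0.02, and Cdkn1a, Plk2 and Dcxr turned to log2 changes of -0.0041, -0.13 and -0.09. Genes were again called when either mutant library was left out, with 1 mutant library in each such fit. Without mutant replicate 2 all mutant values cross annotations, and Rrm2b was again the only member called. Nothing is read from these calls. The ES cell markers summed to 6965 FPKM and 5599 RPKM with the mutant, against 3449 FPKM and 4743 RPKM in het. In replicate 2, 8 were listed with the mutant and 9 in het. Dppa5a alone had 4337 FPKM and 3376 RPKM with the mutant, against 1154 FPKM and 2080 RPKM in het. Of the 8 ES cell markers in the fit, 7 were higher with the mutant and 1, Utf1, was lower. The fibroblast markers summed to 16.0 FPKM and 9.09 RPKM with the mutant, against 54.1 FPKM and 47.6 RPKM in het. Of the 6 fibroblast markers in the fit, 5 were lower with the mutant than in het and 1 was higher. The primitive endoderm sums were 33.9 FPKM and 26.9 RPKM with the mutant, against 34.7 FPKM and 20.8 RPKM in het. The part of none of these marker lists was tested. Trp53inp1 had 38.6 FPKM and 39.1 RPKM with the mutant, against 25.2 FPKM and 22.7 RPKM in het (0.94 ± 0.21 SE, adjusted p = 0.460 in limma). Eda2r had 15.0 FPKM and 14.6 RPKM with the mutant, against 7.48 FPKM and 11.0 RPKM in het (0.90 ± 0.24 SE, adjusted p = 0.460 in limma). Ei24 had 97.2 FPKM and 91.6 RPKM with the mutant, against 47.7 FPKM and 84.3 RPKM in het, and Zmat3 had 11.5 FPKM and 12.5 RPKM with the mutant and 9.53 FPKM and 8.95 RPKM in het. Perp stayed between, at 0.69 ± 0.23 (SE; adjusted p = 0.464 in limma) over het. Mdm2 was near het, at -0.12 ± 0.30 (SE; adjusted p = 0.897 in limma).

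WT SALL4A was added back in 1 library, whose annotation differs from that of KO replicate 1, so there is no test and no replicate check. Of 30 members at 5 or more, 10 were higher and 20 lower with WT SALL4A than in KO replicate 1. Their median log2 ratio was -0.27, against -0.03 over 8423 genes, and all 7 arrest genes were lower. KO replicate 1 also enters KO over het of replicate 1, so opposite signs there are no independent evidence. Before scaling, all genes were shifted by -0.24 on the log2 scale. The median over the members was -0.49 with values as deposited and -0.14 with quantile normalization. Past 2-fold there were 7 of the 30 members, 1 higher and 6 lower. That is near the share of all genes that passed, 22.7%, with 720 higher and 1188 lower. Mdm2 had 21.7 FPKM with WT SALL4A and 75.1 FPKM in KO, Perp had 9.75 FPKM with WT SALL4A and 33.7 FPKM in KO, and Phlda3 had 20.1 FPKM with WT SALL4A against 60.9 FPKM in KO. Plk2, with 6.82 FPKM against 19.1 FPKM in KO, and Plk3, with 3.89 FPKM against 11.4 FPKM in KO, were also past 2-fold lower. Ephx1 was past 2-fold higher, at 7.34 FPKM with WT SALL4A against 3.74 FPKM in KO, and the last of the 7 is Rrm2b, across annotations. The primitive endoderm markers summed to 21.6 FPKM with WT SALL4A against 68.4 FPKM in KO, and the fibroblast markers to 24.5 FPKM against 113 FPKM in KO. The ES cell markers summed to 5305 FPKM against 3537 FPKM in KO. Of these, Dppa5a alone had 2725 FPKM with WT SALL4A against 1442 FPKM in KO. As deposited, Nanog, Sox2, Zfp42 and Lin28a were also higher with WT SALL4A, and Pou5f1, Esrrb, Klf4, Tdgf1 and Utf1 were lower. Fbn1 and Tagln made up most of that fibroblast sum in KO, and Thy1, Col1a2 and Postn were higher with WT SALL4A. The part of these marker lists in the ratios was not tested. The mutant library of replicate 1, set against the same KO library, had 4 of 31 members past 2-fold, Rrm2b among them, where 20.8% of all genes passed, and that of replicate 2 had 1 of 30, Rrm2b, where 16.5% passed. The WT and the mutant pair of replicate 1 share KO replicate 1 and are given side by side only.

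WT and mutant add-back of replicate 1 share an annotation and a unit, and so can be set against each other without those differences. With WT SALL4A, 24 of 30 members were lower than with the mutant and 6 higher, with a median log2 ratio of -0.31, against 0.02 over 8086 genes. None of the members was past 2-fold, where 3.4% of all genes were. The largest difference among these members was in Perp, with 9.75 FPKM with WT SALL4A against 17.9 FPKM with the mutant, a log2 ratio of -0.86. All 7 arrest genes were lower with WT SALL4A, by a median of 0.42 on the log2 scale. The regulators were less so, with 3 of 5 higher, Trp53 among them at 265 FPKM with WT SALL4A and 225 FPKM with the mutant. The fibroblast markers summed to 24.5 FPKM with WT SALL4A and 16.0 FPKM with the mutant, and the primitive endoderm markers to 21.6 FPKM with WT SALL4A and 33.9 FPKM with the mutant, and their part was not tested. As 1 library stands on each side, no test was made.

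In the DKO library the members lay mostly below its WT, a comparison that shares no library with the others. Of 32 members at 5 or more, 9 were higher and 23 lower, with a median log2 ratio of -0.19, against -0.01 over 8621 genes. All 5 regulators were lower, with a median of -0.52: Mdm2 had 35.1 FPKM in DKO and 59.5 FPKM in WT, and Mdm4 had 26.95 FPKM in DKO and 39.7 FPKM in WT. Plk2 had 11.9 FPKM in DKO against 20.0 FPKM in WT, Sesn2 had 21.3 FPKM against 37.7 FPKM in WT, and Eda2r had 5.26 FPKM against 10.5 FPKM in WT. Perp, Ei24 and Dcxr were higher in DKO, with 20.8, 113 and 34.2 FPKM, against 14.3, 77.0 and 21.8 FPKM in WT. Only Gdf15 was past 2-fold, with 5.60 FPKM in DKO and 18.8 FPKM in WT, where 8.49% of all genes passed. The primitive endoderm markers summed to 50.5 FPKM in DKO and 39.5 FPKM in WT, and their part was not tested.

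Cdkn1a hardly differed between DKO and WT, at 100.1 and 101.3 FPKM, but both libraries were far above the others, which ranged up to 36.2. Within each library Cdkn1a ranked at percentile 93.8 in DKO and 93.6 in WT among the genes listed in all 12 tables, and between 56.1 and 80.8 elsewhere. These 2 libraries also had the highest summed fibroblast markers, 316 FPKM in DKO and 306 FPKM in WT, where the other 10 libraries had between 3.88 and 185. The part of such cells in the level of Cdkn1a was not tested.

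Of the 27 members at 5 or more in both Sall4 pairs, the DKO pair and the Sall1 pair, 15 were higher in KO than in het in both replicates. Of these 15, 10 (66.7%) were lower in DKO than in WT, Mdm2, Mdm4, Plk2, Plk3 and Eda2r among them, and 5 were higher: Perp, Ei24, Dcxr, Zmat3 and, by 0.01, Cdkn1a. Over all 6903 such genes, 2061 were higher in both Sall4 pairs and 823 of them (39.9%) were lower in DKO. Among all 32 members at 5 or more in the DKO pair, 23 were lower, so the share is not particular to those 15. The DKO differs from the Sall4 KO in Sall1, in its control and in the line, and which of these goes with the difference cannot be told apart.

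In Sall1 KO against Sall1 het the members' ratios were small. Of 29 members at 5 or more, 15 were higher and 14 lower, all between -0.22 and 0.26 on the log2 scale, with a median of 0.00. Perp had 9.78 FPKM in Sall1 KO and 10.9 FPKM in Sall1 het. Mdm2 had 26.97 FPKM in Sall1 KO and 29.9 FPKM in Sall1 het, and Cdkn1a had 24.9 FPKM in Sall1 KO and 24.8 FPKM in Sall1 het. None was past 2-fold, where 1.35% of all genes were. With 1 library on each side this is no test of the absence of a difference.

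Across all 12 libraries, the members span very different ranges. Bax, the most abundant with Trp53, ran from 159 FPKM with mutant SALL4A (replicate 1) to 330 FPKM in TT2, a 2.08-fold range, and Triap1 had the smallest range, 1.64-fold. Perp ran over 22.6-fold, from 1.55 FPKM in TT2 to 35.1 RPKM in KO replicate 2, and Cdkn1a over 18.7-fold, from 5.41 FPKM in TT2. TT2 held the lowest value of 28 of the 34 members, but its table is at transcript level, so it entered no comparison between groups, and these fold ranges mix tables of different unit, annotation and level. The highest value lay in the WT of DKO for 10 members and in a Sall4 KO library for 12, 6 in each replicate. Fas was at 0.0168 to 2.02 throughout, too low to be read.

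The libraries not yet given for the named members complete their values. Trp53 had 165 FPKM in DKO and 170 FPKM in its WT, 187 FPKM in Sall1 KO and 186 FPKM in Sall1 het, and 90.5 FPKM in TT2. It was thus nearly level within both pairs. Mdm4 had 38.6 FPKM and 35.7 RPKM with mutant and 34.8 FPKM with WT SALL4A. It had 18.2 FPKM in Sall1 KO, 19.7 FPKM in Sall1 het and 10.8 FPKM in TT2, where Mdm2 had 10.5 FPKM. Ppm1d had 6.39 FPKM and 5.43 RPKM with mutant and 7.90 FPKM with WT SALL4A. Its other values, all below both het libraries, were 4.77 FPKM in DKO, 7.41 FPKM in its WT, 6.68 FPKM in Sall1 KO, 5.83 FPKM in Sall1 het and 3.13 FPKM in TT2.

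Of the arrest genes, Cdkn1a had 26.1 FPKM and 23.0 RPKM with mutant and 25.6 FPKM with WT SALL4A, all 3 close to het as deposited. After scaling, both mutant values, 29.6 and 26.2, lay above both het values, 21.9 and 24.4. Ckap2 had 52.7 FPKM and 47.6 RPKM with mutant and 40.5 FPKM with WT SALL4A. It had 25.9 FPKM in DKO, 28.8 FPKM in its WT, 27.4 FPKM in Sall1 KO, 28.7 FPKM in Sall1 het and 12.03 FPKM in TT2, below all Sall4 KO and het libraries. Zmat3 had 9.69 FPKM with WT SALL4A, 8.63 FPKM in DKO, 7.48 FPKM in its WT, 8.35 FPKM in Sall1 KO, 8.02 FPKM in Sall1 het and 3.61 FPKM in TT2. Plk2 had 7.82 FPKM in Sall1 KO, 9.004 FPKM in Sall1 het and 1.245 FPKM in TT2. Plk3 had 9.40 FPKM in DKO against 16.1 FPKM in its WT, 13.2 FPKM in Sall1 KO against 14.8 FPKM in Sall1 het, and 5.24 FPKM in TT2, so the WT of DKO held its highest value.

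Of the apoptosis genes, Apaf1 had 6.71 FPKM and 8.64 RPKM with mutant and 4.58 FPKM with WT SALL4A, 6.42 FPKM in DKO and 6.70 FPKM in its WT, 4.65 FPKM in Sall1 KO and 4.75 FPKM in Sall1 het, and 2.84 FPKM in TT2. Trp53inp1 had 31.0 FPKM with WT SALL4A, 16.6 FPKM in DKO and 26.3 FPKM in its WT, 14.4 FPKM in Sall1 KO and 16.8 FPKM in Sall1 het, and 2.69 FPKM in TT2. Its add-back values lay above those of DKO, its WT and both Sall1 libraries. Phlda3 had 27.5 FPKM and 27.9 RPKM with the mutant, 44.8 FPKM in DKO and 61.2 FPKM in its WT, 20.8 FPKM in Sall1 KO and 22.5 FPKM in Sall1 het, and 9.79 FPKM in TT2. Ei24 had 93.4 FPKM with WT SALL4A, 60.1 FPKM in Sall1 KO, 58.6 FPKM in Sall1 het and 10.9 FPKM in TT2. TT2 held the lowest value of both genes. Eda2r had 10.5 FPKM with WT SALL4A, 5.91 FPKM in Sall1 KO, 6.91 FPKM in Sall1 het and 1.44 FPKM in TT2.

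Of the repair genes, Polk had 5.97 FPKM and 5.43 RPKM with mutant and 3.99 FPKM with WT SALL4A, 5.15 FPKM in DKO and 5.51 FPKM in its WT, 3.70 FPKM in Sall1 KO and 3.62 FPKM in Sall1 het, and 1.88 FPKM in TT2. Its 2 KO values were the highest of the 12. Rrm2b had 1.64 FPKM and 108 RPKM with mutant and 1.89 FPKM with WT SALL4A, 2.03 FPKM in DKO and 2.35 FPKM in its WT, 1.23 FPKM in Sall1 KO and 1.08 FPKM in Sall1 het, and 0.665 FPKM in TT2. Of the stress genes, Dcxr had 21.5 FPKM and 17.4 RPKM with mutant and 14.2 FPKM with WT SALL4A, 11.8 FPKM in Sall1 KO and 11.5 FPKM in Sall1 het, and 12.9 FPKM in TT2. Gdf15 had 4.15 FPKM with WT SALL4A, 4.04 FPKM in Sall1 KO, 4.45 FPKM in Sall1 het and 10.8 FPKM in TT2. Unlike most members, these were not lowest in TT2. Ephx1 had 13.7 FPKM in DKO and 15.0 FPKM in its WT, 6.08 FPKM in Sall1 KO and 6.66 FPKM in Sall1 het, and 2.05 FPKM in TT2.

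Other genes of the pathway were read from lists of the same kind in KO against het. Of 12 upstream kinases and modifiers, 8 were higher and 4 lower and 0 passed the test at an adjusted p of 0.05. Cdkn2a, which encodes ARF, the inhibitor of MDM2, and the CDK inhibitor p16, which share the locus and are not told apart here, had 34.4 FPKM and 32.8 RPKM in KO, against 14.4 FPKM and 15.3 RPKM in het. Its groups do not overlap, and its log2 change was 1.09 ± 0.24 (SE; adjusted p = 0.438 in limma). Of 15 tested among 20 further targets, 9 were higher and 6 lower, and none passed. Bcl2l1, which encodes the survival protein BCL-XL, had 23.9 FPKM and 26.7 RPKM in KO, against 12.2 FPKM and 16.7 RPKM in het (0.74 ± 0.23 SE, adjusted p = 0.520 in limma). Gadd45a, a growth arrest gene, had 51.1 FPKM and 34.4 RPKM in KO, against 88.5 FPKM and 53.6 RPKM in het (-0.74 ± 0.25 SE, adjusted p = 0.535 in limma). Abhd4, a lipase, had 16.1 FPKM and 15.3 RPKM in KO, against 10.0 FPKM and 8.25 RPKM in het. Of 11 tested among 12 cell cycle genes that p53 represses through p21, 9 were higher and 2 lower, with a median of 0.12 and none past the test. Bub1, a spindle checkpoint kinase, had 53.6 FPKM and 47.2 RPKM in KO and 41.9 FPKM and 33.3 RPKM in het. Trp73, the tested one of 2 relatives of p53, was at -0.03.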

How the data were processed

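RNA was measured in 12 libraries of mouse ES cells. Per the submitters' processing notes, TopHat, Bowtie 0.12.7, SAMtools and MACS 1.4.2 were used over the series, with build mm9; the sources used here do not say which of them made the expression tables. The deposited values are FPKM (fragments per kilobase, scaled to mapped fragments) per the file headers for all libraries but replicate 2 of Sall4 KO plus mutant, KO and het, whose deposited tables hold RPKM (the same for reads). Low values showed no steps of whole reads, so depth is unknown and no counting interval is given. Sums of values ranged from 835259 to 7359940, the highest in het replicate 1, where 10 entries held 79.8% of the sum. The tables hold 19049 to 47834 entries of different annotations; the 1225 that name no gene in KO and het replicate 1 (5.93% and 4.79% of the sum) were left out. Of the TT2 gene identifiers, 99.3% were matched to symbols of RefSeq GRCm38.p6, and 18 shifted symbols in mutant replicate 2 were reset by Ensembl identifier.

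Entries of a symbol were summed. Values of the 6 libraries of Sall4 KO plus mutant, KO and het were scaled by the median ratio, 1 was added and log2 taken, and limma 3.58.1 (R 4.3.3; lmFit, then eBayes with a mean trend) was run with group and replicate number as terms, in 3 comparisons, on genes that reached 1 in 2 or more of the 6 libraries. Tests are two-sided, adjusted by Benjamini and Hochberg over all genes at 0.05. Single pairs were scaled within the pair, use genes at 5 or more in 1 library and a 2-fold limit, and have no test. Because 1 is added before the log2, changes of low genes come out too small. The replicate number pairs the samples by their labels, since it goes with strain, line and unit; deviations of same-numbered libraries correlated at 0.58 (KO and het), 0.10 (mutant and het) and 0.06 (mutant and KO) over 11632 genes. Scripts were tested on simulated data. The 20 named members, whose values in every library are plotted and given, are Trp53, Mdm2, Mdm4, Ppm1d, up to 4 members of each other role with the largest change common to both KO over het pairs, and members past 2-fold in a pair; Bax, Bbc3, Pmaip1, Sesn2 and others were added after their values were seen. Members and lists were chosen with earlier results of these data known. Ratios, counts and figures came from Python 3.11.15 (numpy 2.4.6, pandas 2.3.3; figures with matplotlib 3.10.9).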

Additional observations from a re-analysis of the deposited data

Results flagged for a closer look

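Gdf15 moved in opposite directions in the replicates of Sall4 KO against Sall4 het. Its log2 ratio was -0.59 in replicate 1 (3.32 FPKM in KO, 5.69 FPKM in het) and 0.53 in replicate 2 (3.09 RPKM in KO, 1.65 RPKM in het). With 1 library on each side of each pair, the difference between the replicates was not tested, and the replicates carry other units, annotations and strain labels too. All 4 values are low, and the KO values lie close to each other while the het values do not.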

How the results depend on the processing

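In KO against het, members called stayed at 0 under every alternative, and 21 to 26 members were higher when each library was left out; the median was 0.18 to 0.29 then, and 0.26 with a mean value of 5 or more. Gdf15 turned to 0.015 with a pseudocount of 0.1. Without a library, Gdf15 reached -0.52 to 0.45, Rrm2b -3.51 to 0.41 and Apaf1 -0.25 to 1.06. Without the replicate block no member was called in the 3 comparisons, so the block, which pairs the samples, changed no call. The counts of higher members, 23, 18 and 21, and the medians were as with it. For genes listed in all 6 libraries the estimates could not differ, since each replicate holds 1 library of each group.

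In mutant against KO, values as deposited gave 8 members higher and a median of -0.28, with Mdm4 at -0.12, Ckap2 -0.25, Zmat3 -0.22, Ei24 -0.11 and Apaf1 -0.27. Apaf1 was at -0.12 with quantile normalization and Rrm2b at 0.10 with a pseudocount of 5. Leaving out each library gave 0 to 764 genes called, 282 without mutant replicate 1 and 764 without mutant replicate 2, and 0 to 1 members, the 1 being Rrm2b without mutant replicate 2, where its value crosses annotations. Single members ranged over -0.076 to 0.13 (Ckap2), -0.22 to 0.55 (Ei24), -3.28 to 2.59 (Rrm2b), -0.35 to 0.14 (Ppm1d), -2.04e-05 to 0.14 (Zmat3) and -0.37 to 0.32 (Apaf1).

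In mutant against het, a pseudocount of 0.1 gave 1 gene called. As deposited, the median was 0.024, Cdkn1a -0.0041, Plk2 -0.13 and Dcxr -0.093; Plk2 was -0.088 with quantile normalization. Leaving out libraries gave 0 to 655 genes called (203 without mutant replicate 1, 655 without replicate 2) and 0 to 1 members, again Rrm2b, with Plk2 at -0.44 to 0.67, Phlda3 -0.28 to 0.048, Rrm2b -4.83 to 1.03, Mdm2 -0.38 to 0.14, Apaf1 -0.24 to 1.06 and Dcxr -0.026 to 0.36.

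In the pairs, a pseudocount of 5 left 1 member past 2-fold in KO over het replicate 1, 4 in WT add-back over KO and 2 in mutant over KO replicate 1, and a median of 0.16 in KO over het replicate 2. As deposited and with quantile normalization, the medians were -0.49 and -0.14 for WT add-back over KO, -0.31 and 0.10 for mutant over KO replicate 1, and -0.29 and -0.24 for replicate 2. In that last pair 2 members were past 2-fold with a pseudocount of 0.1, 4 as deposited and 3 with quantile normalization. The causes were not tested. Depth is unknown and limits nothing that can be given a number here.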
